A study of Mus musculus with 6 samples.

Results

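The genes described here encode 8 secreted mediators through which regulatory T cells (Treg cells) restrain inflammation or aid tissue repair: Il10, Fgl2, Ebi3, Il12a, Areg, Lgals1, Il1rn and Penk. They were chosen by symbol, with the transcript row of highest total count kept for each, and are 8 of the 23992 gene symbols in the deposited table. RNA was sequenced from Treg cells, which per the labels were live CD4+YFP+ cells sorted from spleen and lymph nodes pooled together. The mice were CD45.2, and how many contributed to a library is not given. The 3 libraries labelled KO came from Foxp3YFP-Cre/Y Crlf2fl/fl mice, and the 3 libraries labelled WT from Foxp3YFP-Cre/Y mice. All of them carry the YFP-Cre allele, in which Foxp3 regulatory sequence drives Cre, and the /Y in the genotype denotes male mice, Foxp3 being X-linked. Crlf2 encodes the chain of the TSLP receptor that is specific to this cytokine, so the design asks what the TSLP receptor does in Treg cells, a question the series title puts in terms of allergic inflammation and Treg identity. The labels used here give no age and no treatment of the mice, and they also describe sorted naive CD4+ T cells of CD45.1 mice, which are not among the sequenced samples. Further, the strain line of each sample description names the opposite strain to the title and genotype tag, which were followed.

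Treg cells act partly through what they release. IL-10, the product of Il10, dampens macrophage and dendritic cell activation, and FGL2 is a fibrinogen-like protein that in mice acts through the inhibitory receptor encoded by Fcgr2b. EBI3 is a subunit that pairs with the product of Il12a to form IL-35, or with that of Il27 to form IL-27. Amphiregulin, from Areg, is a growth factor of the EGF family linked to Treg-mediated repair of lung and muscle, galectin-1, from Lgals1, is a sugar-binding lectin, the IL-1 receptor antagonist, from Il1rn, blocks IL-1 signalling, and proenkephalin, from Penk, is the precursor of the enkephalin opioid peptides.

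Before the values, the DNA just upstream of the transcription start is shown for the mediators in which a searched motif of a T cell activation factor was found. RefSeq (GRCm38.p6, the build also called mm10) held a promoter for Fgl2, Ebi3, Il12a, Areg and Il1rn, and the 250 bases before each start were read. Il10, Lgals1 and Penk had no entry. Printed 5′ to 3′ on the plus strand, on which all 3 genes lie, with AP-1 (TGANTCA) or cyclic AMP response element (TGACGTCA) matches in capitals, they read:
Fgl2, chr5:21372423-21372672: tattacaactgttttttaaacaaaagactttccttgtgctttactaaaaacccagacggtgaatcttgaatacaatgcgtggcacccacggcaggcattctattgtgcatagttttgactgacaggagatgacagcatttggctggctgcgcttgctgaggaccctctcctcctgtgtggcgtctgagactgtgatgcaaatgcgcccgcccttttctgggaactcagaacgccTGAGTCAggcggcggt
Areg, chr5:91139349-91139598: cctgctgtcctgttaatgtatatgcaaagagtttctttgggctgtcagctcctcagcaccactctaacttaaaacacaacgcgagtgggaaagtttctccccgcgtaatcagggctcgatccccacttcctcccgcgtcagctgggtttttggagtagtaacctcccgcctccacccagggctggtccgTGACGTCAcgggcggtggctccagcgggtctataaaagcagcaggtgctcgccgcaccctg
Il1rn (most upstream start), chr2:24336610-24336859: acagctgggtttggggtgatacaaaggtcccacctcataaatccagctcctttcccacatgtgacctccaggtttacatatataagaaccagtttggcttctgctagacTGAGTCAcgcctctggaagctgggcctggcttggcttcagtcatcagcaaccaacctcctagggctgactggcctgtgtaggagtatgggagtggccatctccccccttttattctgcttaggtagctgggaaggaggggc
The AP-1 match of Fgl2 began 16 bases before the start and that of Il1rn 141 bases before it, whereas the cyclic AMP response element of Areg began 61 bases before its start. These are RefSeq starts. GENCODE M21 begins Fgl2 further upstream, at 21372642, so by that annotation the AP-1 match of Fgl2 lies inside the gene. The other 2 RefSeq starts of Il1rn had no AP-1 match. Both motifs read the same on either strand, and their matches did not overlap. Of all 32851 mouse windows of the same length, 6.75% held an AP-1 match and 1.55% the cyclic AMP response element. A STAT motif (TTCNNNGAA, in 7.02% of windows) was also present in Fgl2, 36 bases before the start, and TATAAA (in 12.4%) in Areg, 31 bases before the start. The windows of Ebi3 and Il12a held none of these motifs, nor GGAAAA, the core bound by NFAT (in 20.4% of windows), which was found 47 bases before the third start of Il1rn. These are matches of letters and say nothing of binding.

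Depth ran from 1439736 counts in WT replicate 2 to 18352401 in KO replicate 3, and 12720 genes passed the filter on low counts. Levels are given as CPM, counts relative to library size, scaled by the trimmed mean of M values (TMM). Crlf2 itself was at 9.06, 6.72 and 3.55 CPM across KO replicates 1 to 3, against 92.8, 146 and 105 CPM across WT replicates 1 to 3 (a log2 fold change of -4.16 with SE 0.36 and an edgeR adjusted p = 0.0047). Foxp3, the lineage factor of Treg cells, was present in every library, at 386 to 489 CPM in KO cells and 200.1 to 474 CPM in WT cells. WT replicate 3, which had the lowest Foxp3 value, stood apart in its content of other cells' transcripts. Markers of erythroid cells took 0.195% to 0.288% of the counts in KO cells and 0.173%, 0.689% and 14.5% across WT replicates 1 to 3. Macrophage and monocyte markers (18 of 20 listed genes in the table, none at 0 throughout) took 0.275% to 0.295% in KO cells and 0.0428%, 0.0836% and 0.750% across WT replicates 1 to 3. B cell, mast cell, dendritic cell, neutrophil and innate lymphoid markers were likewise highest in WT replicate 3, with shares no higher than 0.0969% in any library. The summed shares of macrophage and of innate lymphoid markers were also higher in every KO library than in WT replicates 1 and 2. Most of the innate lymphoid share came from Arg1, Tyrobp and Fcer1g. Arg1 was at 49.0 to 71.3 CPM in KO cells and at 3.48 and 14.4 CPM in those WT replicates. Other members of that list did not move together. Ncr1 was not higher in KO, at 0.157 to 0.487 CPM against 0.535 and 2.05 CPM. Klre1, Eomes and Klrb1c were at most 0.480 CPM in any KO library and 2.05 CPM in those WT replicates. Il13 was higher in KO, at 5.65 to 7.73 CPM against 1.34 and 2.05 CPM. Lung epithelial transcripts took 0.278% to 2.16% in KO cells and 1.85% to 8.45% in WT, although the labelled tissue is spleen and lymph node; the deposited table's title mentions lung.

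**Figure D1:**
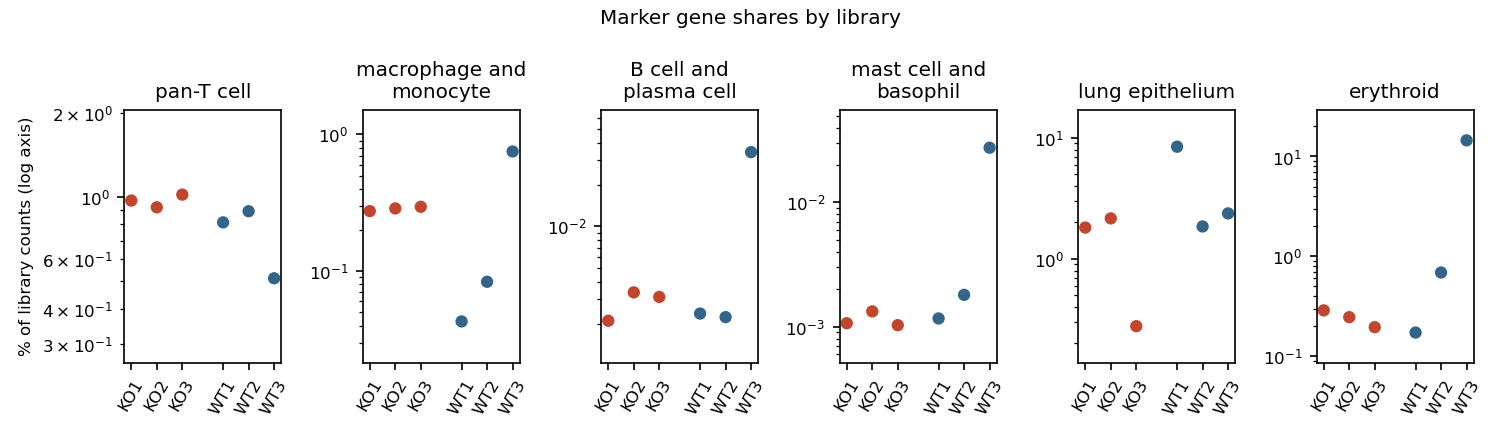
Share of each library's counts taken by marker genes of T cells and of 5 other cell classes, in percent on log axes, with KO libraries in red and WT libraries in blue. WT replicate 3 was highest for macrophage, B cell, mast cell and erythroid markers and lowest for pan-T cell genes (0.513%).

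Of the 8 mediators, Il10 and Fgl2 rose in KO Treg cells and no other passed the test. Il12a was too scarce to be tested, so 7 entered the edgeR quasi-likelihood test, in which a gene is called when its p, adjusted by Benjamini and Hochberg over all tested genes, is under 0.05. Called were 2 of the 7, against 1.74% of all tested genes. Both were higher in KO, as were 0.755% of all tested genes, and none of the 7 was lower, against 0.983% of all. Fold changes of the 7 ran from -2.71 for Il1rn to 2.27 for Il10 on the log2 scale, with a median of 0.30, against -0.04 for all tested genes. At an unadjusted p under 0.05, 4 of the 7 would have passed, as did 15.9% of all genes. In bulk RNA such as this, more cells expressing a gene and more RNA per cell cannot be told apart.

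Il10 was the mediator of largest rise. It had 1923, 2414 and 4212 reads across KO replicates 1 to 3, against 321, 90 and 262 reads across WT replicates 1 to 3. Scaled to depth these were 187, 193 and 219.9 CPM in KO cells and 42.9, 61.6 and 24.8 CPM in WT cells. The lowest KO library was thus above the highest WT library, and the KO values lay closer together than the WT values. The means were 200.1 ± 17.4 CPM in KO cells and 43.1 ± 18.4 CPM in WT cells (± SD, with n = 3 each), a 4.83-fold rise (a log2 fold change of 2.27 with SE 0.29 and an edgeR adjusted p = 0.0160). By fold change Il10 ranked 20 among the 96 genes called higher. Macrophage markers were also more abundant in KO libraries than in WT replicates 1 and 2, beside Il10 and Fgl2 alike. Their part in the values of these genes was not tested. WT replicate 3 was the library richest in these markers, and in CPM it had the lowest level of both mediators. It also had the lowest share of pan-T cell genes (0.513%). Per 1000 counts of those genes, its Fgl2 (43.5) was the highest of the WT libraries and its Il10 (4.19) the lowest. Without WT replicate 3 the log2 fold change of Il10 was 1.98 (edgeR adjusted p = 0.0023). The call was lost without any of KO replicates 1 and 3 and WT replicate 1, where the edgeR adjusted p was 0.0990, 0.113 and 0.0606. The log2 fold change lay between 1.98 and 2.59 in all 6 fits that left out a library. The gene lies on chromosome 1 (mm10, chr1:131019845-131024974, plus strand, protein coding) and overlaps no other annotated gene in GENCODE M21.

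Fgl2 was far more abundant than Il10 and also rose. Its reads numbered 11903, 11489 and 22764 across KO replicates 1 to 3 and 2705, 548 and 2721 across WT replicates 1 to 3. The levels were 1159, 919.7 and 1188 CPM in KO, against 362, 375 and 257 CPM in WT cells, again without overlap. On average Fgl2 was at 1089 ± 147 CPM in KO cells and 331 ± 64.4 CPM in WT cells (± SD, with n = 3 each), a 3.29-fold rise (a log2 fold change of 1.72 with SE 0.17 and an edgeR adjusted p = 0.0077). It ranked 33 among the 96 genes called higher, and its call was lost without KO replicate 1 or KO replicate 3 (edgeR adjusted p = 0.0716 and 0.0707, log2 fold changes 1.68 and 1.66). Fgl2 lies at chr5:21372642-21378374 (mm10, plus strand), within the span of Ccdc146 on the opposite strand. Ccdc146 had at most 8 reads in any library, against 548 or more of Fgl2.

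When mediators were expressed per 1000 counts of 17 pan-T cell genes, so that only T cell transcripts set the scale, Fgl2 stood at 127, 108 and 121 across KO replicates 1 to 3 and at 41.7, 42.7 and 43.5 across WT replicates 1 to 3. On this scale the 3 WT libraries, WT replicate 3 included, were almost level with one another. Il10 was at 20.5, 22.7 and 22.5 in KO cells and 4.95, 7.02 and 4.19 in WT. With edgeR scaled to the same genes the log2 fold changes were 2.04 for Il10 and 1.48 for Fgl2, both called. This scaling put the median log2 fold change of all genes at -0.33, against -0.04 with TMM, and called 26 genes higher and 152 lower, against 96 higher and 125 lower with TMM.

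**Figure D2:**
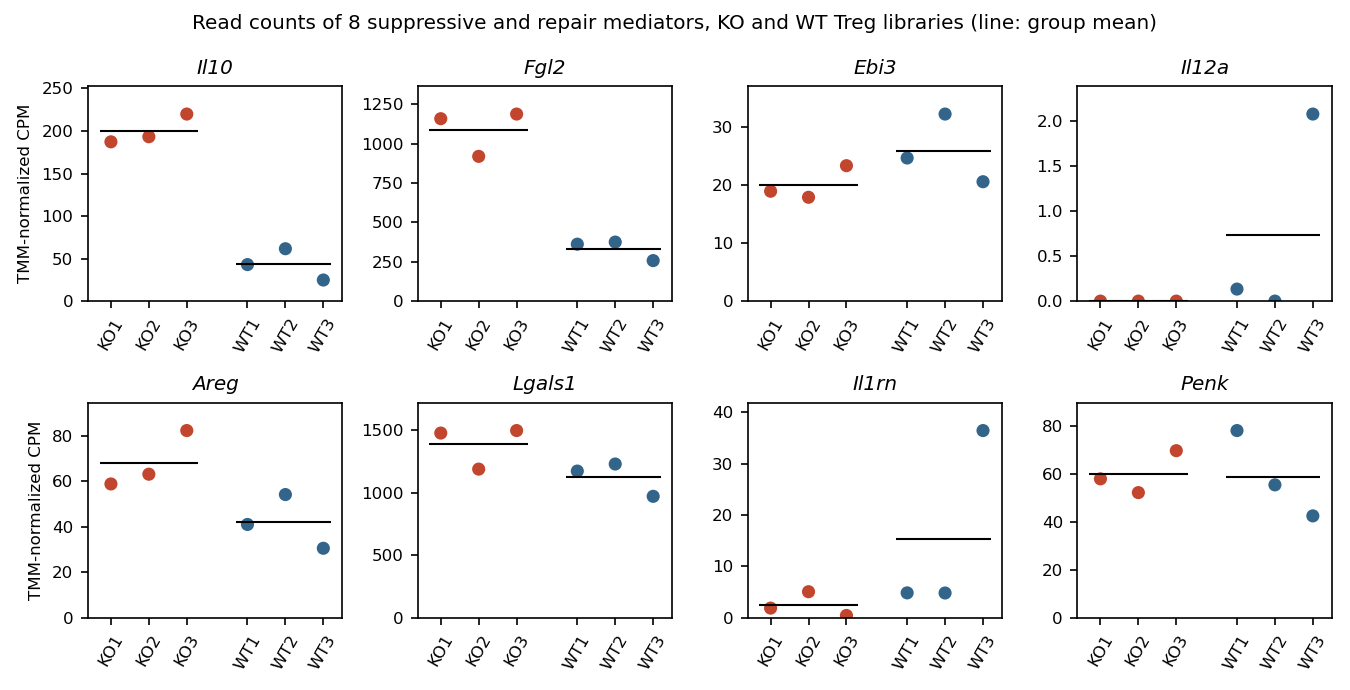
TMM-normalized CPM of the 8 mediators in each library, KO in red at left and WT in blue at right of each panel, with a line at the group mean (n = 3 each). Il10 and Fgl2 were higher in all KO libraries than in any WT library, Areg by a narrow margin, and Il1rn and Il12a had their highest value in WT replicate 3.

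Areg, which encodes the repair factor amphiregulin, was somewhat higher in KO but was not called. It was at 58.7, 63.0 and 82.2 CPM across KO replicates 1 to 3 and at 40.9, 54.1 and 30.5 CPM across WT replicates 1 to 3. The groups did not overlap, as for 22.0% of all tested genes, though the lowest KO library lay only just above the highest WT library. The means were 68.0 ± 12.5 CPM in KO cells and 41.8 ± 11.8 CPM in WT cells (± SD with n = 3 each; a log2 fold change of 0.73 with SE 0.24 and an edgeR adjusted p = 0.180). The 95% interval of the log2 fold change, not adjusted for the number of genes, was 0.19 to 1.28. Areg lies at chr5:91139599-91148432 (mm10, plus strand). Per 1000 pan-T cell counts it was at 6.43 to 8.40 in KO cells and 4.72 to 6.16 in WT, and with that scaling the log2 fold change was 0.48.

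Lgals1, the galectin-1 gene, was the most abundant mediator in both groups and was not called. Its levels were 1477, 1188 and 1497 CPM in KO cells and 1173, 1229 and 970.4 CPM in WT cells, so KO replicate 2 lay below WT replicate 2. Means of 1387 ± 173 CPM in KO cells and 1124 ± 136 CPM in WT cells (± SD, with n = 3 each) gave a log2 fold change of 0.30 (SE 0.14 and edgeR adjusted p = 0.328), with an unadjusted 95% interval of -0.01 to 0.62. Scaled to pan-T cell genes the log2 fold change was 0.05. The gene lies at chr15:78926725-78930465 (mm10, plus strand).

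Penk, the proenkephalin gene, overlapped fully between the groups and was not called. It was at 57.9, 52.2 and 69.7 CPM in KO cells and 78.1, 55.4 and 42.5 CPM in WT cells, with the KO values inside the range of the WT values. The log2 fold change was 0.03 (SE 0.24 and edgeR adjusted p = 0.970) and its unadjusted 95% interval, -0.52 to 0.58, leaves room for a change in either direction. Its sign turned when scaled to pan-T cell genes (-0.21), without KO replicate 3 (-0.09) and without WT replicate 3 (-0.18). Penk lies at chr4:4133531-4138819 (mm10, minus strand), where the annotation places the transcript A830012C17Rik on the opposite strand.

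Neither gene of IL-35 was called. Ebi3 was at 18.9, 17.9 and 23.3 CPM in KO cells and 24.6, 32.2 and 20.5 CPM in WT cells, and the groups overlapped through WT replicate 3. Per 1000 pan-T cell counts it was at 2.07, 2.09 and 2.38 in KO cells and 2.84, 3.66 and 3.47 in WT. The means were 20.01 ± 2.88 CPM in KO cells and 25.8 ± 5.90 CPM in WT cells (± SD, with n = 3 each). Its log2 fold change of -0.34 (SE 0.25 and edgeR adjusted p = 0.567) had an unadjusted 95% interval of -0.92 to 0.24. It was -0.60 when scaled to pan-T cell genes (edgeR adjusted p = 0.316), a scaling that put the median of all tested genes at -0.33. Without WT replicate 2 it was -0.15 (edgeR adjusted p = 0.796). Ebi3 lies at chr17:55952640-55957022 (mm10, plus strand) and overlaps the antisense transcript Gm16712, itself at 3.89 to 4.24 CPM in KO cells and 3.21 to 4.82 CPM in WT cells. Without a stated strand setting, reads of this pair cannot be told apart. Il12a (chr3:68690644-68698547, mm10, plus strand), whose product is the other chain of IL-35, had 0 reads in each KO library and 1, 0 and 22 reads across WT replicates 1 to 3. A count of 0 allows up to 0.292, 0.240 and 0.157 CPM across KO replicates 1 to 3, but 2.05 CPM in the shallow WT replicate 2. Of the 23 Il12a reads, 22 thus came from the library with the most transcripts of other cell types. Il27, whose product pairs with EBI3 in IL-27, was scarce too, at 0, 1.36 and 0 CPM in KO cells and 0, 0 and 0.189 CPM in WT cells.

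Il1rn had a single high library, the one that also held most Il12a reads. It was at 1.85, 5.04 and 0.418 CPM across KO replicates 1 to 3 and at 4.81, 4.79 and 36.4 CPM across WT replicates 1 to 3. KO replicate 2 lay above 2 of the WT libraries, and WT replicate 3 was far above all others. The log2 fold change of -2.71 (SE 1.11) was not called (edgeR adjusted p = 0.296), and without WT replicate 3 it was -0.98 (edgeR adjusted p = 0.622). In WT replicate 3, Chil3 and Lyz2, transcripts of alveolar macrophages and of myeloid cells in general, were at 3779 and 3747 CPM. KO libraries had more of both than WT replicates 1 and 2. Chil3 was at 1478 to 1699 CPM in KO cells and at 131 and 388 CPM in those WT replicates. Neutrophil markers took 0.0114%, 0.0105% and 0.00916% of the counts across KO replicates 1 to 3. Across WT replicates 1 to 3 they took 0.0103%, 0.0128% and 0.0614%. The part of other cells in the Il1rn values was not tested. Of its 3 transcript rows (chr2:24336853-24351494, mm10, plus strand) the kept one held 518 reads in all and the others 466 and 453, with WT replicate 3 highest in each.

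**Figure D3:**
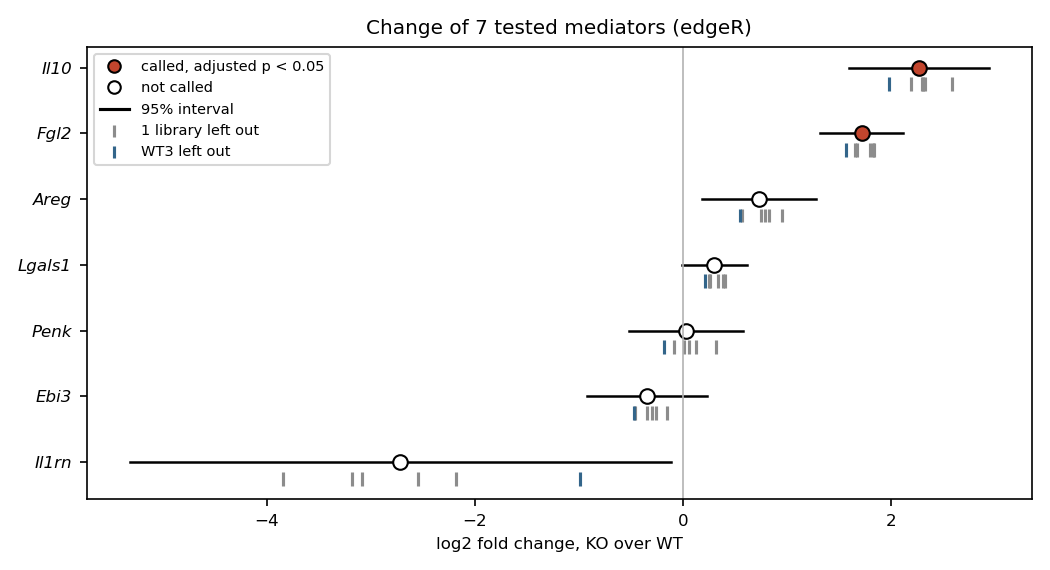
Log2 fold change of KO over WT for the 7 tested mediators (circles, filled red when the edgeR adjusted p was under 0.05) with the unadjusted 95% interval, and below each the values with any 1 library left out (ticks, blue for WT replicate 3). Il10 and Fgl2 lie well to the right of 0 in every such fit, whereas Penk straddles 0 and Il1rn moves from -2.71 to -0.98 without WT replicate 3.

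Compared per transcript length, the mediators spanned a wide range and their order shifted in the middle. Lgals1 led with 1734 ± 216 CPM per kb in KO cells and 1405 ± 170 in WT, above 99.6% of tested genes. Fgl2 came next, at 289 ± 39.1 CPM per kb in KO cells and 87.9 ± 17.1 in WT. In KO, Il10 was the third, at 153 ± 13.3 CPM per kb, clear of Areg (56.7 ± 10.4), Penk (42.5 ± 6.32) and Ebi3 (17.1 ± 2.46). In WT, by contrast, Penk (41.5 ± 12.8 CPM per kb), Areg (34.9 ± 9.86), Il10 (33.0 ± 14.1) and Ebi3 (22.0 ± 5.04) lay within or near one another's spread (SD, n = 3). Il1rn was last of the tested genes in both groups, at 0.983 ± 0.955 CPM per kb in KO cells and 6.19 ± 7.36 in WT. KO and WT libraries thus shared the top and the bottom of the order, and differed in the place of Il10.

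**Figure D4:**
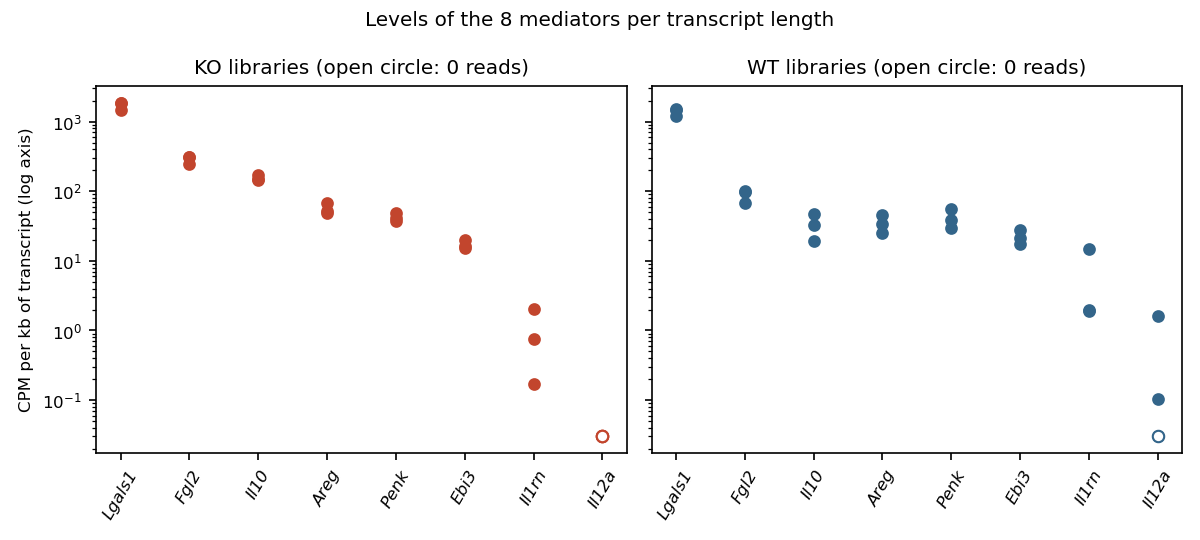
CPM per kb of transcript, on a log axis, for the 8 mediators in KO libraries (left, red) and WT libraries (right, blue), each point a library, with libraries without a read drawn as open circles at the foot. Il10 stands apart from Areg, Penk and Ebi3 in KO, and lies among them in WT.

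Across the 6 libraries, the profiles of Il10 and Fgl2 were alike. Likeness was measured as the root-mean-square difference of log2 CPM after centring each gene on its mean, and it was 0.37 between this pair, which made Fgl2 the 16th nearest of all tested genes to Il10. The root-mean-square differences of Il10 from Areg and Lgals1 were 0.80 and 1.04, and from Il1rn 2.69. Nearest to Il10 among genes of at least 5 CPM were Pdcd1 (0.18), which encodes the inhibitory receptor PD-1, Podnl1, Mt3, Abhd1 and Arnt2 (0.29). Pdcd1 was at 1218 ± 199 CPM in KO cells and 312 ± 126 CPM in WT cells (± SD, with n = 3 each). Nearest to Fgl2 were Tox2 (0.14), a DNA-binding HMG-box factor, Gm17745, Npnt, 1700097N02Rik and Lgals4 (0.19). Lgals4, a relative of Lgals1, was at 9.62 ± 0.964 CPM in KO cells and 3.00 ± 1.03 CPM in WT cells and was not called (log2 fold change 1.76, edgeR adjusted p = 0.0937). These genes were found by the same libraries in which the 2 mediators differ, so the likeness is a description of the group difference and its size.

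Among genes of receptors for the mediators edgeR called only Il6st. Of 14 tested 1 was thus lower and 0 higher, against 0.983% and 0.755% of all tested genes. DESeq2 called 4 higher and 4 lower, against 367 and 496 of all 12720 tested genes. By limma-voom 1 was called higher and 2 lower, against 133 and 176 of all. The median log2 fold change was -0.46 with all libraries, -0.18 without WT replicate 1 and -0.0069 without WT replicate 3. Il6st encodes gp130, the signalling chain used by IL-27 and IL-6. It fell to 51.7 ± 10.4 CPM in KO, against 123 ± 18.4 CPM in WT cells (± SD with n = 3 each; a log2 fold change of -1.26 with SE 0.19 and an edgeR adjusted p = 0.0246). The IL-10 receptor chains, named after their values were seen, had log2 fold changes of 0.46 for Il10ra and 0.71 for Il10rb and were not called (edgeR adjusted p = 0.141 and 0.0549). Il10rb was at 101, 112 and 109 CPM in KO cells and 69.4, 55.4 and 70.3 CPM in WT cells, without overlap. Egfr, the amphiregulin receptor, was at or below 0.574 CPM in KO cells and at 0.134, 0 and 3.31 CPM across WT replicates 1 to 3. Il6st was not called when KO replicate 1 or 3, or WT replicate 1 or 2, was left out (edgeR adjusted p = 0.171, 0.149, 0.0724 and 0.0585). Without WT replicate 3, 4 receptor genes were called higher and 3 lower. That fit called 28 genes over all the lists around the mediators, against 14 with all libraries, so the gain in calls was not confined to receptors. Calls over all genes also vary with the library left out, as given in the last section.

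No listed relative of the mediators was called higher by edgeR with all libraries. DESeq2 likewise called 0 of the list higher and 2 lower. Lgals4, described above, is not in the list and was called higher by DESeq2 (log2 fold change 1.81, DESeq2 adjusted p = 0.0134). The list held paralogues, family members and the galectin-binding Lgals3bp. Of its 25 genes 24 were in the table, and 7 of these had no read in any library. Of the 9 that could be tested, 2 were called lower and 0 higher, against 0.983% and 0.755% of all tested genes. Lgals9, which encodes the immunoregulatory lectin galectin-9, fell to 148 ± 9.58 CPM in KO, against 294 ± 74.5 CPM in WT cells (± SD with n = 3 each; a log2 fold change of -0.99 with SE 0.19 and an edgeR adjusted p = 0.0465). Lgals3bp, which encodes a secreted glycoprotein that binds galectins, fell to 187 ± 41.2 CPM in KO, against 419 ± 65.4 CPM in WT cells (± SD with n = 3 each; a log2 fold change of -1.17 with SE 0.19 and an edgeR adjusted p = 0.0288). Neither gene was called when KO replicate 1 or 3, or WT replicate 1 or 2, was left out, where the edgeR adjusted p was 0.101 to 0.259 for Lgals9 and 0.0853 to 0.185 for Lgals3bp, nor was Lgals9 without KO replicate 2 (0.126). Without WT replicate 3, 1 gene of the list was called higher and 2 lower, in a fit that called 28 genes over all the lists, against 14 with all libraries.

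None of the 18 factors listed as regulators of Il10 in T cells was called by edgeR. An unadjusted p under 0.05 was reached by 7, against 15.9% of all tested genes. With other tests, DESeq2 called 2 higher and 1 lower (367 and 496 of all 12720), and limma-voom 1 higher (133 of all). The median log2 fold change of the list was 0.32, with 13 of the 18 positive, but 0.02 when scaled to pan-T cell genes. The list does not separate factors that raise Il10 from factors that lower it, so its median has no single reading. Gata3, a transcription factor of Th2 and tissue Treg cells, was at 1610, 1312 and 1751 CPM in KO cells and at 864, 967.5 and 496 CPM in WT cells (a log2 fold change of 1.01 with SE 0.24 and an edgeR adjusted p = 0.0904). Every KO library was above every WT library for Gata3, and it was called without WT replicate 3 (log2 fold change 0.77, edgeR adjusted p = 0.0193). Junb, an AP-1 subunit and the most abundant of the list, was at 4176 ± 813 CPM in KO cells and 3127 ± 403 CPM in WT cells (± SD with n = 3 each; edgeR adjusted p = 0.255). Prdm1 and Maf, both linked to Il10 expression and named after their values were seen, had log2 fold changes of 0.48 and 0.64 and were not called (edgeR adjusted p = 0.192 and 0.175). Ahr, a ligand-activated factor of the list also named after its values were seen, was at 72.1, 94.5 and 81.4 CPM in KO cells and 119, 109 and 126 CPM in WT cells, lower in KO without overlap but not called (log2 fold change -0.52, edgeR adjusted p = 0.132).

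Among 8 tested genes that process precursors such as proenkephalin and pro-amphiregulin, 1 was called higher and 1 lower. The shares over all tested genes were 0.755% and 0.983%. Scg5, which encodes 7B2, a chaperone of the prohormone convertase PC2, was at 9.93, 15.2 and 10.3 CPM in KO, against 0.669, 0.684 and 1.51 CPM in WT cells (a log2 fold change of 3.49 with SE 0.52 and an edgeR adjusted p = 0.0234). Pcsk2, the gene of that convertase, had 0 reads in all 6 libraries. Furin, which encodes a broadly acting proprotein convertase, fell to 190.2 ± 36.4 CPM in KO, against 346 ± 20.1 CPM in WT cells (± SD with n = 3 each; a log2 fold change of -0.86 with SE 0.16 and an edgeR adjusted p = 0.0415). Adam17, which encodes the sheddase that releases amphiregulin, was at 55.1 to 74.3 CPM in KO cells and 79.5 to 80.7 CPM in WT cells and was not called (edgeR adjusted p = 0.336). Neither Scg5 nor Furin was called when any library other than WT replicate 3 was left out, where the edgeR adjusted p was 0.0615 to 0.144 for Scg5 and 0.0725 to 0.191 for Furin, nor was Scg5 when scaled to pan-T cell genes (edgeR adjusted p = 0.0530).

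Other suppressive mechanisms moved in both directions beside Il10 and Fgl2. Of 25 tested genes 4 were called higher and 3 lower, against 0.755% and 0.983% of all tested genes. The median log2 fold change of the list was -0.11. Lag3, an inhibitory receptor gene, was at 304 ± 36.5 CPM in KO cells and 72.4 ± 11.4 CPM in WT cells (± SD with n = 3 each; a log2 fold change of 2.08 with SE 0.16 and an edgeR adjusted p = 0.0047). Itgb8, whose integrin activates latent TGF-beta, was at 19.0, 19.9 and 18.3 CPM in KO, against 2.94, 5.47 and 3.59 CPM in WT cells (a log2 fold change of 2.33 with SE 0.35 and an edgeR adjusted p = 0.0234). It was not called when scaled to pan-T cell genes (edgeR adjusted p = 0.0530). Pdcd1, described above, and Tigit, which lies outside the naming rule, also rose (log2 fold changes 1.97 and 1.09, edgeR adjusted p = 0.0360 and 0.0483). Gzmb, the granzyme B gene, fell to 69.2 ± 12.1 CPM in KO, against 204 ± 15.9 CPM in WT cells (± SD with n = 3 each; a log2 fold change of -1.56 with SE 0.16 and an edgeR adjusted p = 0.0077). Lgals9 and, outside the naming rule, Cd274, which encodes PD-L1 (log2 fold change -1.04, edgeR adjusted p = 0.0465), also fell. Tgfb1, named after its values were seen, had a log2 fold change of 0.06 (edgeR adjusted p = 0.928). Leaving out KO replicate 2 left 3 genes of this list called, leaving out KO replicate 1 left 1 gene of this list called (Lag3), and leaving out KO replicate 3, WT replicate 1 or WT replicate 2 left 2 in each case, Lag3 and Gzmb.

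Of 16 tested genes of tissue and repair Treg cells, 3 were called higher and 0 lower, against 0.755% and 0.983% of all tested genes. The median log2 fold change of the list was 0.57. Scaled to pan-T cell genes, 2 were called higher (Ccr8 and Klrg1) and 1 lower, and Pparg was not called (log2 fold change 1.58, edgeR adjusted p = 0.111). DESeq2 called 6 higher and 3 lower (367 and 496 of all 12720), and limma-voom 5 higher and 0 lower (133 and 176 of all). With edgeR but without WT replicate 3, 5 were called higher and 1 lower. That fit called 28 genes over all the lists, against 14 with all libraries. The chemokine receptor gene Ccr8 was at 429 ± 121 CPM in KO cells and 120.2 ± 31.4 CPM in WT cells, and Klrg1, a receptor gene of terminally differentiated effector cells, at 287 ± 59.4 CPM in KO cells and 122 ± 28.5 CPM in WT cells (± SD, with n = 3 each). Their log2 fold changes were 1.85 and 1.25 (edgeR adjusted p = 0.0196 and 0.0360). Pparg, a nuclear receptor of tissue Treg cells and also of alveolar macrophages, was at 49.7, 32.2 and 44.8 CPM in KO, against 8.96, 8.21 and 14.9 CPM in WT cells (log2 fold change 1.93, edgeR adjusted p = 0.0263). Like Pparg, macrophage markers stood higher in KO than in WT replicates 1 and 2. Those markers made up 0.275% to 0.295% of each KO library, against 0.0428% and 0.0836% of that WT pair. The markers did not follow Pparg over all 6 libraries. WT replicate 3 held the largest marker share, 0.750%, but its Pparg level (14.9 CPM) was below that of every KO library. The part of macrophages in the Pparg values was not tested. Innate lymphoid markers, mostly Arg1, Tyrobp and Fcer1g, took 0.0171% to 0.0208% in KO cells and 0.00506%, 0.0106% and 0.0969% across WT replicates 1 to 3. Their part in the values of this list was likewise not tested. Il1rl1, named after its values were seen, encodes the IL-33 receptor upstream of Areg. It was at 205, 165 and 191 CPM in KO cells and 118, 176 and 76.4 CPM in WT cells, with overlap, and was not called (edgeR adjusted p = 0.312). When KO replicate 1 or 3, or WT replicate 1 or 2, was left out, 0 genes of this list were called by edgeR. In those fits 9 to 11 passed at an unadjusted p under 0.05. With all 6 libraries, 15.9% of all tested genes passed at that p.

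**Figure D5:**
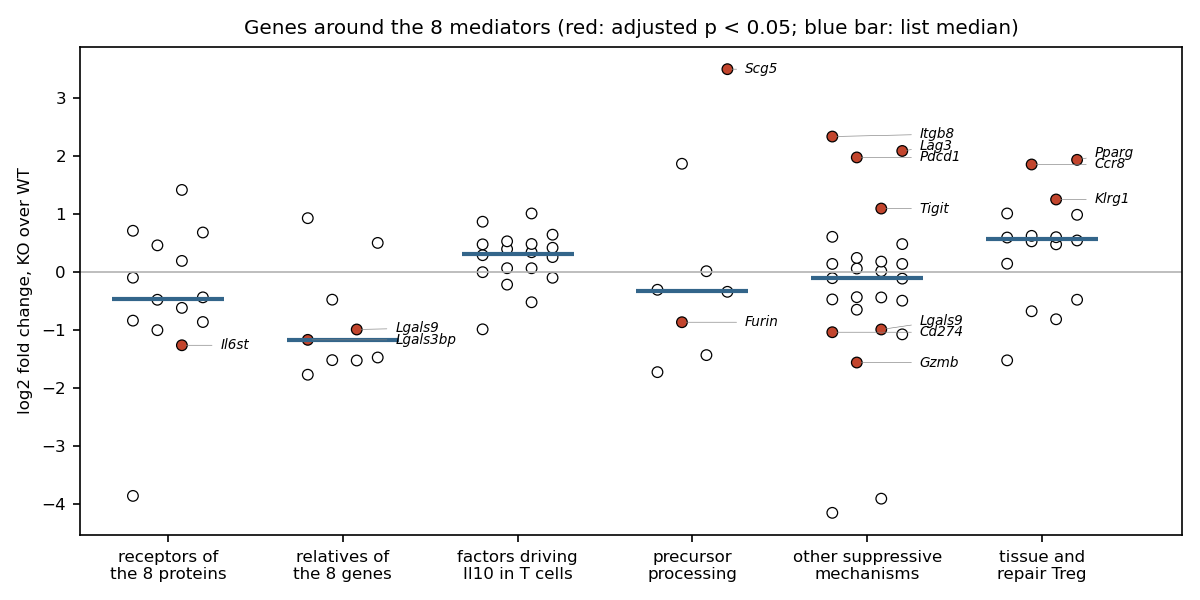
Log2 fold change of KO over WT for the tested genes of 6 lists around the mediators (circles, red when the edgeR adjusted p was under 0.05, with the list median as a blue bar). Red circles lie on both sides of 0 among other suppressive mechanisms, only above 0 among tissue and repair Treg genes (with pan-T cell scaling 1 was called lower). The listed regulators of Il10, labelled as factors driving it, hold none.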

How the data were processed

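The deposited table holds raw counts of reads for each RefSeq transcript, in whole numbers, and a length column, per the file headers. Tools and build were TopHat2 2.2.1, Bowtie2 2.2.6, bcl2fastq and mm10, per the submitters' processing notes. How reads were counted (program, strand, multi-mapping) is not given in the sources used here. Its 31682 rows were reduced to 23992 symbols by keeping the row of highest total, since isoforms repeat shared reads. Every row named a gene (0 without a symbol). Columns were assigned to samples by the description labels.

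The KO and WT groups were compared in edgeR 4.0.16 (R 4.3.3): filterByExpr (minimum count 10, minimum total 15), TMM factors, glmQLFit with robust estimation, glmQLFTest, and Benjamini-Hochberg adjustment over the 12720 tested genes. SE was derived from the log2 fold change and the F statistic. The 95% intervals use the total degrees of freedom of that fit and are not adjusted. Coordinates are from GENCODE M21 and promoters from RefSeq. The fit was also run on simulated counts, which had no uneven content of other cells, so that run does not speak for these libraries. Alternatives used limma 3.58.1 and DESeq2 1.42.0, other scaling, filtering and row choices, a replicate block, and leaving out each library. A count of 0 was taken to allow 3 counts, for counting error only.

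The labels do not say whether replicates are separate animals; p-values therefore reflect the spread among these 6 libraries, which may be technical. In no pair of replicates did counts agree within sampling noise (chi-square per degree of freedom at least 15.9). The members and lists were chosen with earlier results of these data known. Always named were the 8 mediators, Crlf2 and Foxp3. From each list up to 4 called genes of smallest p were named, or the 2 of highest CPM where none was called, and for each called mediator the 5 genes of most similar profile. Some genes named otherwise are marked where they appear. Adam17, Egfr, Il27, Pcsk1, Pcsk2, genes that overlap a mediator and single markers of other cell types carry no mark, and were also named outside this rule.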

Additional observations from a re-analysis of the deposited data

How the results depend on the processing

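Il10 and Fgl2 were called in all 9 alternatives that kept the 6 libraries, and in 3 and 4 of the 6 fits that left out a library. Their log2 fold changes ran from 1.98 to 2.59 and from 1.48 to 1.83 over all 15. No other mediator was called in any of them. Leaving out a library moved the number of called mediators between 0 and 2, that of called genes in the 6 lists between 1 and 28, and that of all called genes between 4 and 518. The DESeq2 Wald test called 863 genes in all and 30 in the lists, against 221 and 14 with edgeR. With the replicate block, 123 genes and 5 list genes were called, and both mediators remained called (edgeR adjusted p = 0.0369 for Il10 and 0.0214 for Fgl2). The median of the receptor list was 0.11 with the block, and of the tissue and repair list 1 gene was then called higher. Deviations of same-numbered libraries from their group means correlated at 0.09, -0.15 and -0.04 across genes, and WT replicate 2 correlated best with KO replicate 3. The 3 deviations of a gene within a group sum to 0 and carry the uneven content of other cells. These correlations therefore cannot decide whether replicate numbers pair libraries, which the labels do not say. Penk reversed to -0.21 with pan-T cell scaling and ranged from -0.18 to 0.32 when a library was left out. Foxp3 ranged from -0.067 to 0.47 in those fits, being -0.067 without WT replicate 3. Why these values moved was not tested. Il12a, filtered out elsewhere, had an edgeR adjusted p = 0.229 without the filter. WT replicate 2, with 1439736 counts, limits what can be said of genes below about 2.05 CPM.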
